A study of Mus musculus with 179 samples.

Results

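The 10 genes described here belong to the Notch signalling pathway: the receptors Notch1, Notch2 and Notch3, the ligands Jag1, Jag2 and Dll1, the DNA-binding factor Rbpj, and the target genes Hes1, Hey1 and Nrarp. They were chosen by name from the pathway, not by their values, and all 10 had an entry among the 32100 gene identifiers of the UMI (unique molecular identifier) count table. The data came from single cells of mouse pancreatic acinar organoids, each deposited as its own sample. Acinar cells had been dissociated from the pancreas, enriched on a density gradient and grown as organoids in Matrigel for 9 days. RNA was read by Smart-seq3, a full-length single-cell method that tags each captured molecule at its 5′ end, as the RNA arm of a multi-omic protocol; the methylation and accessibility of the same cells were not analysed here. Every cell was labelled wild type, C57BL6 and acinar cell, so the data held 1 group, and no age, animal or separate culture was given.

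Notch receptors and their ligands are both transmembrane proteins, so a signal passes between touching cells. A ligand on one cell prompts cleavage of the receptor on its neighbour, and the freed intracellular part enters the nucleus, joins RBPJ and Mastermind co-activators, and turns on genes such as Hes1. In the pancreas, Notch activity is known for holding progenitor cells undifferentiated during development, and Hes1 and Sox9 are known in duct and centroacinar cells and in acinar cells that take on duct features.

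Cells held a median of 165267 UMIs (3258 to 329522). Levels are given as UMI CPM, that is UMIs of a gene scaled to 1000000 UMIs of all genes, and pooled values carry an exact 95% Poisson interval that covers counting error only. To compare detection at 1 depth, each cell was also thinned at random to 40000 UMIs, where 1 UMI equals 25 CPM; this kept all cells but the 18 shallowest (89.9% of cells). The cells were largely of epithelial and duct-like expression: outside 6 fibroblast-rich cells, the summed level of 8 simple-epithelium genes had a median of 11587 CPM over cells and 10 duct genes one of 8704 CPM, while 10 acinar enzyme genes had a median of 121.7 CPM and reached 222424 CPM in 1 cell, Acinar52. The 6 fibroblast-rich cells (Acinar5, Acinar6, Acinar44, Acinar105, Acinar182 and Acinar188) held at least 1000 CPM of 10 fibroblast genes, and results that rest on them are given with and without them. Because cells of 1 group are not replicates, no p-value was computed from them.

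Hes1, Notch2 and the 2 Jagged ligands made up most of the Notch pathway RNA counted for these genes. Hes1, a repressor of the basic helix-loop-helix class and the textbook Notch target, alone gave 4214 of 8982 UMIs (46.9%). Notch2 gave 83.4% of the 2368 UMIs of the 3 receptors. Hey1 and Nrarp, also known Notch targets, were rare.

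**Figure D1:**
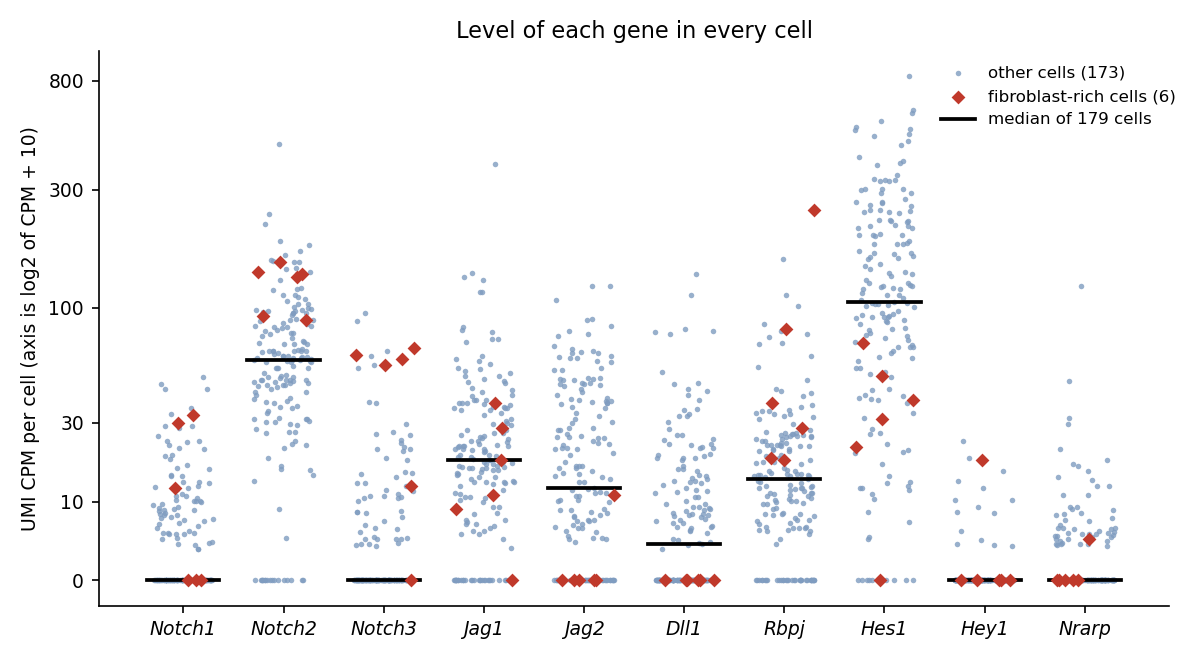
Level of each of the 10 genes in every cell, in UMI CPM on an axis of log2 of CPM plus 10. Each point is a cell, black lines are medians over all cells and red diamonds the 6 fibroblast-rich cells; Hes1 and Notch2 have the highest medians (106.1 and 59.5 CPM), while the medians of Notch1, Notch3, Hey1 and Nrarp lie at 0.

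Among the receptors, Notch2 (chr3:98013527-98150361, plus strand, GRCm38) was at 70.9 CPM (67.8 to 74.1), with 1974 UMIs. Its level ran from 0 to 455 CPM over cells with a median of 59.5 CPM, and the highest cell was Acinar191 with 76 UMIs. Notch2 was thus broadly present: 90.5% of cells (exact binomial 95% interval 85.2 to 94.4) had a UMI, and among the cells with at least 100000 UMIs, 3 had none. Notch1 (chr2:26457903-26516663, minus strand) was at 6.79 CPM (5.86 to 7.83), and 80 cells (44.7%) had a UMI. Its median cell was at 0 and its highest, Acinar53, at 49.6 CPM with 10 UMIs. Notch3 (chr17:32120820-32166852, minus strand), a receptor best known from vascular smooth muscle and pericytes, was at 7.37 CPM (6.39 to 8.45) and was found in 62 cells (34.6%). The intervals of Notch1 and Notch3 overlap, and both lie far below that of Notch2. The highest Notch3 level, 94.7 CPM in Acinar116, was 1 UMI in a cell of 10563 UMIs, so it carries little weight; by number of molecules, Acinar164 was first with 16.

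Jag1 and Jag2 were at nearly the same UMI level, though not in reads (51.8 and 20.9 CPM of reads). Jag1 (chr2:137081456-137116644, minus strand) was at 25.3 CPM (23.5 to 27.3) and Jag2 (chr12:112907819-112929776, minus strand) at 24.7 CPM (22.9 to 26.6), and these intervals overlap. Jag1 was spread over more cells, with a UMI in 82.1% (75.7 to 87.4) against 70.9% (63.7 to 77.5) for Jag2. Over cells, Jag1 had a median of 18.7 CPM and Jag2 of 12.5 CPM, and both reached 0. The highest Jag1 count, 31 UMIs, was in Acinar30 (115.9 CPM), and the highest Jag2 count, 30 UMIs, in Acinar62 (122.7 CPM). Dll1 (chr17:15367354-15376872, minus strand), the ligand of the Delta-like family on the list, was lower at 10.9 CPM (9.66 to 12.1), with a UMI in 92 cells (51.4%) and a median of 3.74 CPM. Its top cell by count, Acinar184, held 18 UMIs (113.3 CPM).

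Rbpj (chr5:53466152-53657362, plus strand), through which all Notch receptors act on DNA, was at 21.1 CPM (19.5 to 22.9) and was found in 81.01% of cells. Its median was 14.4 CPM, and 57 of its 588 UMIs lay in 1 fibroblast-rich cell, Acinar5 (249.9 CPM). Hes1 (chr16:30064384-30067796, plus strand) was at 151.4 CPM (146.9 to 156.1), which put it above 95.6% of the 30474 genes with any UMI. It was found in 94.4% of cells, with a median of 106.1 CPM, quartiles of 50.01 and 216.5 CPM, and a maximum of 833 CPM in Acinar90. Hes1 was thus both common and graded, from cells with none to cells several times above the median. Nrarp (chr2:25180758-25183339, plus strand), a small ankyrin-repeat protein that dampens Notch signalling in a feedback loop, was at 3.20 CPM (2.57 to 3.94) with 89 UMIs in 55 cells (30.7%). Hey1 (chr3:8663359-8667256, minus strand), a repressor related to Hes1, had 28 UMIs in 16 cells (8.94%), or 1.01 CPM (0.669 to 1.45).

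By pooled UMI CPM the order was Hes1, Notch2, Jag1, Jag2, Rbpj, Dll1, Notch3, Notch1, Nrarp and Hey1, with the neighbours Jag1 and Jag2, and Notch3 and Notch1, not apart beyond counting error. Per length (reads per kilobase of all annotated exons merged), the order was Hes1, Jag1, Notch2, Jag2, Dll1, Rbpj, Nrarp, Notch3, Notch1 and Hey1. Whether reads rise with exon length here was not tested, so this order depends on an unchecked scaling. Reads per UMI were 1.92 for Hes1 (2.04 kb) and 1.93 for Notch1 (14.2 kb). Jag1 stood above Notch2 on the scale per length, and the 2 genes differed in reads per molecule. Jag1 had 4.74 reads per UMI, more than 99.6% of the 13108 genes with at least 100 UMIs, whose median was 2.21 and whose middle 90% ran from 1.47 to 2.70. Notch2 had 2.60. In the median cell with a Jag1 UMI the ratio was 4.25, and 21 cells had Jag1 reads without a UMI. The high ratio was thus seen in the typical cell and not in a few alone.

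Some values share sequence or position with other genes. Nrarp lies with the antisense gene Gm38287, Dll1 with A930024N18Rik and Rbpj with Gm10441 and Gm40304, none of which had an entry of its own; Notch3 overlaps Gm17276 (26 UMIs), Notch1 overlaps 0610009E02Rik (27 UMIs) and Gm13568 (9 UMIs), and Notch2 overlaps Gm42819 (12 UMIs) and Gm42820 (67 UMIs) on its own strand. The sources used here do not say whether strand was used in counting, so reads of these partners could not be told apart. The Rbpj pseudogene Rbpj-ps3 had 31 UMIs, and the split of reads between it and Rbpj is uncertain.

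At 40000 UMIs per cell, Notch2 was found in 90.1% of cells (84.4 to 94.2) and Hes1 in 85.1% (78.6 to 90.2), although Hes1 had the higher mean, 6.29 against 3.12 UMIs per thinned cell. Those intervals overlap. Jag1 followed with 56.5%, Rbpj with 50.9%, Jag2 with 46.6%, Dll1 with 27.95%, Notch1 with 23.0%, Notch3 with 19.3%, Nrarp with 11.2% and Hey1 with 3.11%. For most of the genes these shares lay below those at full depth: Rbpj went from 81.01 to 50.9%, Jag1 from 82.1 to 56.5%, Notch1 from 44.7 to 23.0% and Nrarp from 30.7 to 11.2%. A cell without a UMI of these genes therefore cannot be read as a cell without the gene.

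**Figure D2:**
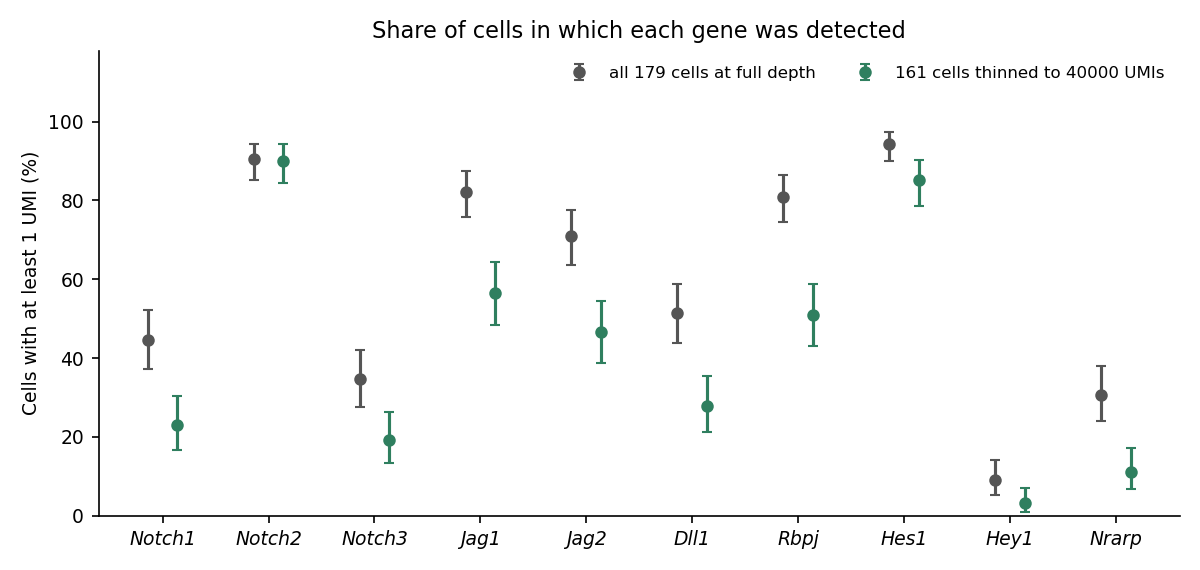
Share of cells with at least 1 UMI of each gene, in percent with exact 95% binomial intervals, for all cells at full depth (grey) and the cells thinned to 40000 UMIs (green). Notch2 stays at 90.1% after thinning, while Notch1, Notch3, Dll1 and Nrarp fall below 30% (23.0, 19.3, 27.95 and 11.2%).

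Most cells carried RNA of both sides of the pathway. At 40000 UMIs, 91.9% of cells had a UMI of at least 1 of the 3 receptors, 83.2% of at least 1 of the 3 ligands, and 77.6% of both. The product of the separate shares is 76.5%, so receptor and ligand were found in the same cell about as often as their separate frequencies give. Jag1 and Notch2 were found together in 51.6% of cells (product 50.9%), Jag2 and Notch2 in 41.6% (product 41.95%), and Dll1 and Notch2 in 24.8% (product 25.2%). At this depth ligand and receptor RNA were thus found side by side in most cells. Among the ligands, Jag1 and Jag2 shared 26.7% of cells against a product of 26.3%. The common case was 1 receptor per cell, mostly Notch2: 92 cells had UMIs of exactly 1 receptor, 47 of 2, 9 of all 3 and 13 of none. For the ligands, 69 cells had exactly 1, 53 had 2, 12 had all 3 and 27 had none. Hes1 was found without any of these 3 receptors in 10 cells (6.21%, 3.02 to 11.1), and 64 cells (39.8%) had Hes1, Rbpj and a receptor together.

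Hes1 had the largest spread between cells relative to genes of its own level. Spread is given as the squared coefficient of variation left after the Poisson part is taken off, at full depth over the cells with at least 40000 UMIs, beside the median of the 100 genes nearest in mean. For Hes1 it was 0.762, which was 6.21 times the 0.123 of genes of like mean and a higher ratio than 88.5% of genes tested. In the thinned counts, 85.7% of the variance of Hes1 lay beyond counting noise. Notch2, with 0.332, was at 1.78 times its like-mean genes, and at 0.196 without Acinar191. Jag1 was at 0.628 (2.59 times), Jag2 at 0.854 (3.32 times) and Dll1 at 1.63 (3.07 times), so each ligand varied more than the median gene of its level. These ratios were higher than those of 76.3, 80.6 and 79.5% of genes tested, so many other genes had larger ones. Notch3 was at 3.19 (3.96 times), the largest value among the 9 genes that reached the minimum mean of 0.5 UMI. Rbpj was at 1.62 with all cells and at 0.596 without Acinar5, so its spread rested on that cell. Notch1 at 0.974 (1.16 times) and Nrarp at 1.35 (0.881 times) varied about as much as other genes of their low level, and Hey1 did not reach the minimum mean.

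Cell titles carry numbers whose meaning is not given; in 8 blocks of 24 numbers, pooled Hes1 ran from 93.1 to 213 CPM and Notch2 from 52.7 to 106.7 CPM. Dll1 ranged more widely, from 4.23 to 19.4 CPM, and Jag1 less widely than Hes1, Notch2, Jag2 and Rbpj, from 21.5 to 34.1 CPM. One block, numbers 97 to 120, had a median depth of 43007 UMIs against 125349 to 213704 in the others.

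Correlations of Hes1 with its receptors and ligands over cells were weak. Over the thinned cells, which are cells of 1 group whose preparation batches are not given in the sources used here, Spearman's rho with Hes1 was 0.126 for Notch1, 0.141 for Notch2 and -0.059 for Notch3. Among the ligands it was 0.110 for Jag1, -0.139 for Jag2 and -0.045 for Dll1. For the nuclear and target genes it was -0.100 for Rbpj, 0.142 for Nrarp and -0.137 for Hey1. A rho of at least 0.2 in either direction was reached by 0 of the 4 genes that averaged 0.5 UMI or more per thinned cell (Notch2, Jag1, Jag2 and Rbpj), beside 2.88% of 9731 genes of that mean. Without the 6 fibroblast-rich cells, the values for Notch2, Nrarp and Jag2 were 0.166, 0.168 and -0.170, and again 0 of 4 genes reached 0.2, beside 2.94% of 9626 genes. A count of 0 among 4 genes is near that background, correlations this weak in sparse counts are no finding, and their size moved with the settings. Over 12 settings rho ran from -0.024 to 0.225 for Notch2, from -0.059 to 0.242 for Notch1 and from -0.181 to -0.034 for Jag2. Jag1 stayed above 0 and Jag2 below 0 in all 12, with Jag1 between 0.025 and 0.160. Within blocks of title numbers, the rho of Notch2 with Hes1 ran from -0.173 (14 cells) to 0.616 (21 cells, numbers 73 to 96), that of Jag1 from -0.114 to 0.390 and that of Jag2 from -0.401 to 0.067.

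**Figure D3:**
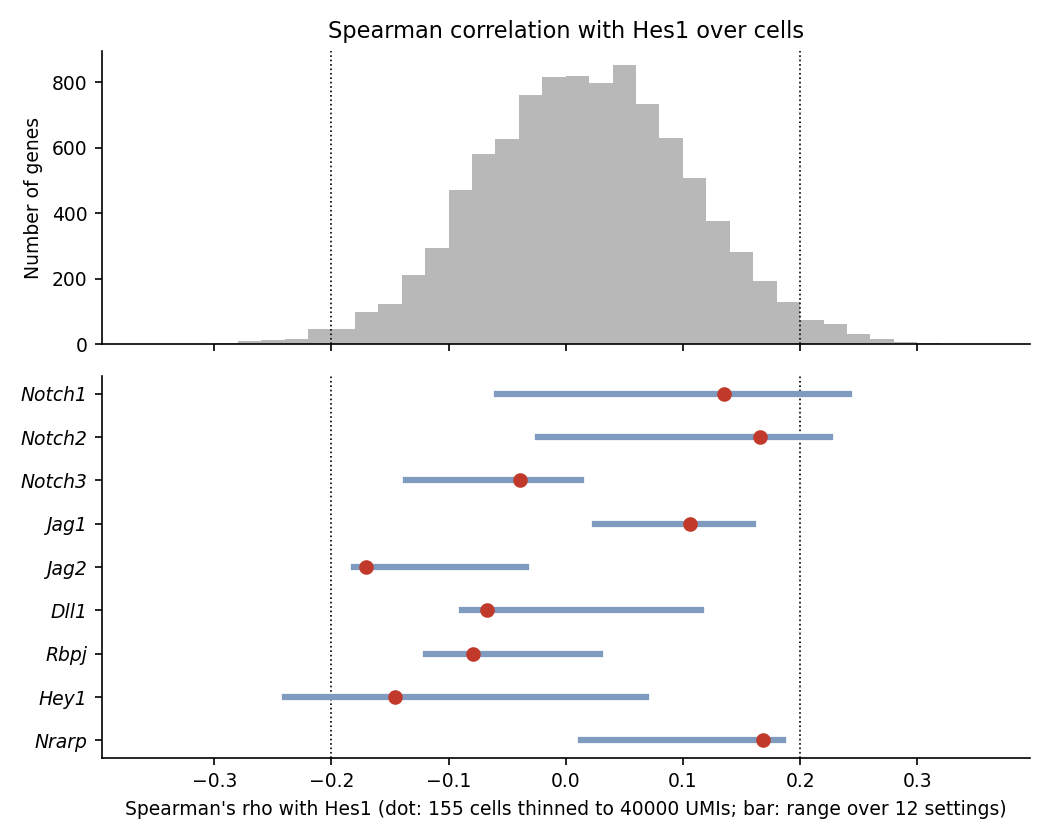
Spearman's rho with Hes1. The upper panel counts the 9626 genes that averaged 0.5 UMI or more over thinned cells without the 6 fibroblast-rich cells; the lower panel gives each Notch gene in those cells (dot) and its range over 12 settings (bar), with dotted lines at 0.2 and -0.2. All 9 dots lie between -0.170 and 0.168, inside the full range of the counted genes (-0.310 to 0.350). The dots of Jag2, Hey1, Notch2 and Nrarp lie in the outer tails of those genes, below -0.128 or above 0.164.

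Of the 10 pairs among the 5 genes of sufficient mean (Hes1 and the 4 named above), without the fibroblast-rich cells, 0 reached 0.2 in either direction, and they lay between -0.170 and 0.166. In the same cells the share of all genes that reached 0.2 with 1 of these 5 genes was 1.89 to 9.06%, so this count is near the background. The other 35 pairs include a gene below that mean and are described only. Over all 45 the median was 0.035, the highest was Hes1 with Nrarp (0.168, with 0.013 to 0.186 over 12 settings) and the lowest Nrarp with Rbpj (-0.174). With ranks centred within blocks of title numbers, the 45 values ran from -0.167 to 0.191. Notch1 and Notch2 stood at 0.165 (0.166 within blocks), and Jag1 and Notch2 at 0.143, which ran from 0.011 to 0.29 over other settings.

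The genes whose pattern was most like that of Hes1, by Spearman's rho over thinned cells without the fibroblast-rich ones and among genes averaging 0.5 UMI or more, were Grcc10 (0.350), Smarca2, an ATPase of SWI/SNF chromatin remodelling complexes (0.339), Rnmt, which methylates the mRNA cap (0.321), Pamr1 (0.317) and Bicc1, an RNA-binding protein (0.307). With another random thinning they were 0.347, 0.264, 0.143, 0.304 and 0.330, so Rnmt depended on the draw. The lowest were Sc5d, a sterol desaturase (-0.310), Ifi30, a lysosomal thiol reductase (-0.305), and Sema3e, a semaphorin (-0.295); with the other thinning these were -0.153, -0.298 and -0.137. Grcc10, Smarca2, Pamr1 and Bicc1 stayed past 0.2 in both draws, in title numbers up to 96 and from 97 (0.275 to 0.394) and within blocks (0.280 to 0.326). The genes named here and below as most alike were picked by rho from 9626 or more genes over these same cells. The other settings reuse those cells, so values that hold in them are no separate support. Ifi30 stood at -0.115 in title numbers up to 96 and at -0.463 from 97. For Notch1 the most alike were Cadps2 (0.334), Sec61a1 (0.332) and Prrc2b (0.326). For Nrarp they were Gramd1b (0.302), Lynx1 (0.283) and Kctd11 (0.279). Those for Notch1 and Nrarp rest on few UMIs, and the other thinning gave 0.078 for Prrc2b and 0.088 for Kctd11. Within blocks these 6 genes stood between 0.267 and 0.361.

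Notch2 varied with more genes than Hes1 did: 9.06% of 9626 genes reached 0.2 in either direction with it (9.15% of 9731 with all thinned cells), of the 4 Notch genes of sufficient mean 0. Its closest genes were 2610307P16Rik (0.462), Cald1, caldesmon, which binds actin and tropomyosin (0.424), and St3gal2, a sialyltransferase (0.408). Over other settings Cald1 stayed between 0.32 and 0.47. With the other thinning 2610307P16Rik was at 0.327 and St3gal2 at 0.246, and St3gal2 was at 0.253 in title numbers from 97. Notch2 also varied with the summed list of 7 pericyte and smooth muscle genes, at 0.42 (0.35 to 0.44 over 9 other settings, among them without Acinar191, without Acinar172 and within blocks). Most of that sum outside the fibroblast-rich cells was Rgs5 (386 UMIs in 30 cells), a pericyte gene that limits G-protein signalling, and Mcam (260 UMIs in 37 cells), an adhesion protein, which gave 89.97% of the 718 UMIs of the list. Acinar172 alone held 228 of the Rgs5 UMIs (2505 CPM) and Notch2 at 241.8 CPM; without it the rho of Notch2 with the list was 0.41. Both genes were found in 13 cells. Notch2 stood at 0.40 with Rgs5 (0.18 to 0.46 over settings) and at 0.34 with Mcam (0.25 to 0.39). The list's defining contractile genes were near 0 outside the fibroblast-rich cells, with 10 UMIs of Acta2 and 8 of Myh11, and in the fibroblast-rich cells Rgs5 was at 0. Notch2 also varied with the number of genes found in a cell (0.181) and hardly with total UMIs (0.043).

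**Figure D4:**
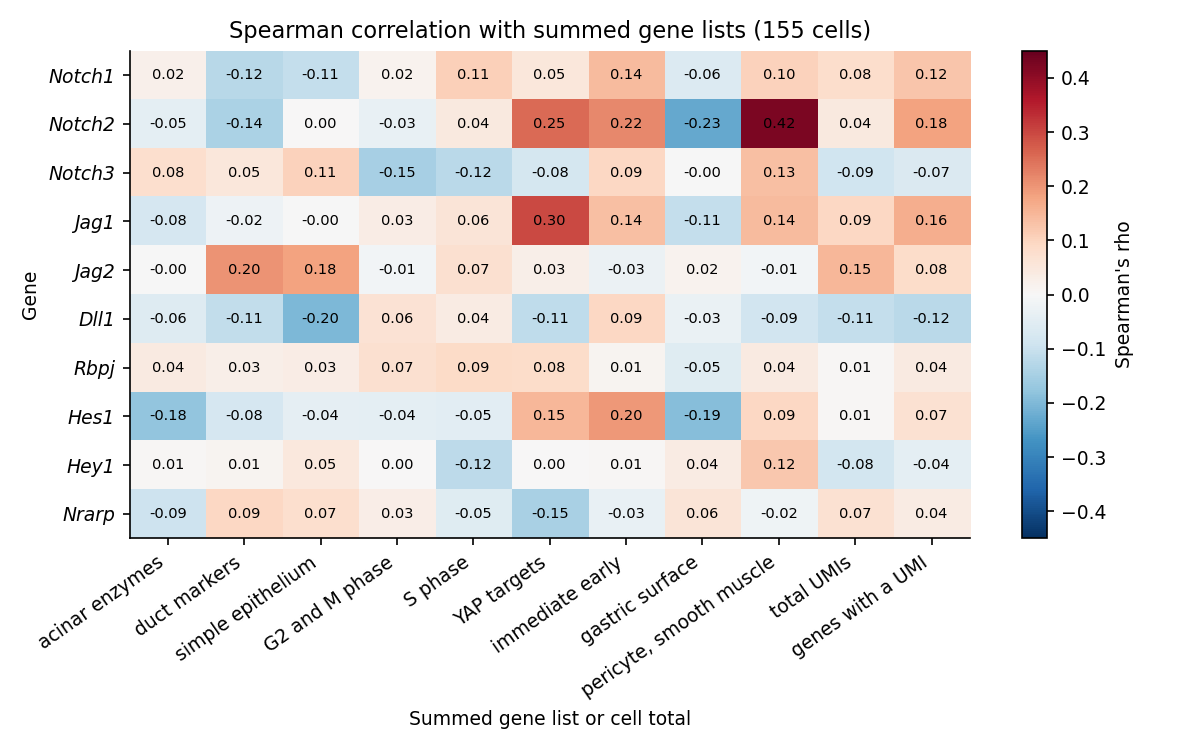
Spearman's rho of each Notch gene with the summed level of 9 gene lists and with 2 cell totals, over thinned cells without the 6 fibroblast-rich cells. The strongest values are Notch2 with the pericyte and smooth muscle list (0.42) and Jag1 with YAP target genes (0.30). The row of Hes1 stays between -0.193 for gastric surface genes and 0.196 for immediate early genes.

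Jag1 varied with targets of YAP, a co-activator driven by cell shape and density, for which Jag1 is itself a known target gene. Whether YAP plays a part in these cells was not tested. Jag1 reached 0.2 in either direction with 3.40% of 9626 genes, and stood at 0.163 with the number of genes found in a cell. Its rho with 8 summed YAP target genes was 0.30 (0.25 to 0.39 over settings), and 72.3% of the UMIs of that list were Ankrd1 and Ccn2, so these are no separate support. Alone they stood at 0.28 (0.22 to 0.37) and 0.27 (0.20 to 0.35), and the other 6 genes, Ajuba, Tead1, Amotl2, Axl, Ccn1 and Lats2, between 0.102 and 0.182. The genes most like Jag1 were Frmd6, a regulator upstream of the Hippo pathway (0.356), Cbs (0.320) and Kifc3, a kinesin (0.313); with the other thinning these were 0.281, 0.062 and 0.292. Notch2 stood at 0.25 with the YAP list, with a range from 0.11 to 0.31. Jag2 and Dll1 stood at 0.03 and -0.11 with that list, and the difference between ligands was not tested. Jag2 stood at 0.20 with 10 duct genes (0.16 to 0.28), and Dll1 at -0.20 with 8 simple-epithelium genes (-0.29 to -0.17). Hes1 stood at 0.196 with 10 immediate early genes (0.14 to 0.23) and at -0.193 with gastric surface genes (-0.25 to -0.14). Notch2 had values larger in size with both lists, 0.216 and -0.232, the latter with a range from -0.32 to -0.11. Hes1 also stood at -0.18 with acinar enzymes (-0.24 to -0.13) and at 0.11 with Sox9, a duct and progenitor factor (0.04 to 0.14). For S phase and G2 and M phase genes, values of all 10 genes lay between -0.15 and 0.11.

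The 6 fibroblast-rich cells shared Notch2 as their leading receptor with the other cells but had more Notch3 and less Hes1, Jag2 and Dll1 per UMI. Notch3 was at 41.2 CPM in them (29.9 to 55.3) against 6.02 CPM (5.12 to 7.02), a ratio of 6.85 (exact 95% interval 4.79 to 9.61, counting error only). In the order Acinar5, Acinar6, Acinar44, Acinar105, Acinar182 and Acinar188, Notch3 was at 0, 12.9, 56.3, 62.6, 59.8 and 67.3 CPM. So 4 of the 6 were high and alike, and the groups overlap, since other cells ranged from 0 to 94.7 CPM with a median of 0. Hes1 was lower, at 35.6 CPM (25.2 to 48.8) against 156.1 CPM (151.4 to 160.9), a ratio of 0.228 (0.161 to 0.313). Its values in the same order were 0, 38.7, 70.3, 31.3, 22.4 and 50.5 CPM, all below the median of 113.1 CPM of the other cells. Dll1 had 0 UMIs in the 6 cells against 11.3 CPM in the others, which is at least 3.25-fold lower by the exact 95% interval. With the group set to a floor of 3 counts the fold was 4.02, a value set by that floor and not a bound. Jag2 had 2 UMIs, both in Acinar188, a cell that also held 3667 CPM of epithelial genes, against 25.6 CPM in the others; the ratio was 0.073 (0.0088 to 0.265).

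Rbpj was at 81.5 CPM (65.2 to 100.5) in the fibroblast-rich cells against 18.7 CPM, a ratio of 4.35 (3.42 to 5.47), but Acinar5 held 57 of its 87 UMIs there. In the order above its values were 249.9, 19.4, 18.8, 81.4, 37.4 and 28.04 CPM, and without Acinar5 the ratio was 1.91. Notch2 was higher in all 6 (89.1 to 154.9 CPM) than the median of 59.1 CPM in the others, with a ratio of 1.75 (1.45 to 2.09) that stays below 2-fold. Jag1 at 16.9 against 25.7 CPM and Notch1 at 12.2 against 6.58 CPM had ratio intervals that include 1 (0.387 to 1.05 and 0.966 to 3.25). Without Acinar44, which held 7 of the 13 Notch1 UMIs, the Notch1 ratio went from 1.85 to 1.07. Hey1 had 4 UMIs, all in Acinar44 (ratio 4.18, 1.05 to 12.2), and Nrarp had 1 UMI (ratio 0.285, 0.0071 to 1.63). By a fold of at least 2, Notch3, Rbpj and Hey1 were higher and Hes1, Jag2, Dll1 and Nrarp lower, 3 and 4 of 10 genes. Of 17752 genes with at least 20 UMIs, 16.4% were higher and 16.8% lower by that fold, 33.2% either way, so a difference of this size was common between these cells. Median depths were 169027 UMIs in the 6 cells and 165267 in the others.

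**Figure D5:**
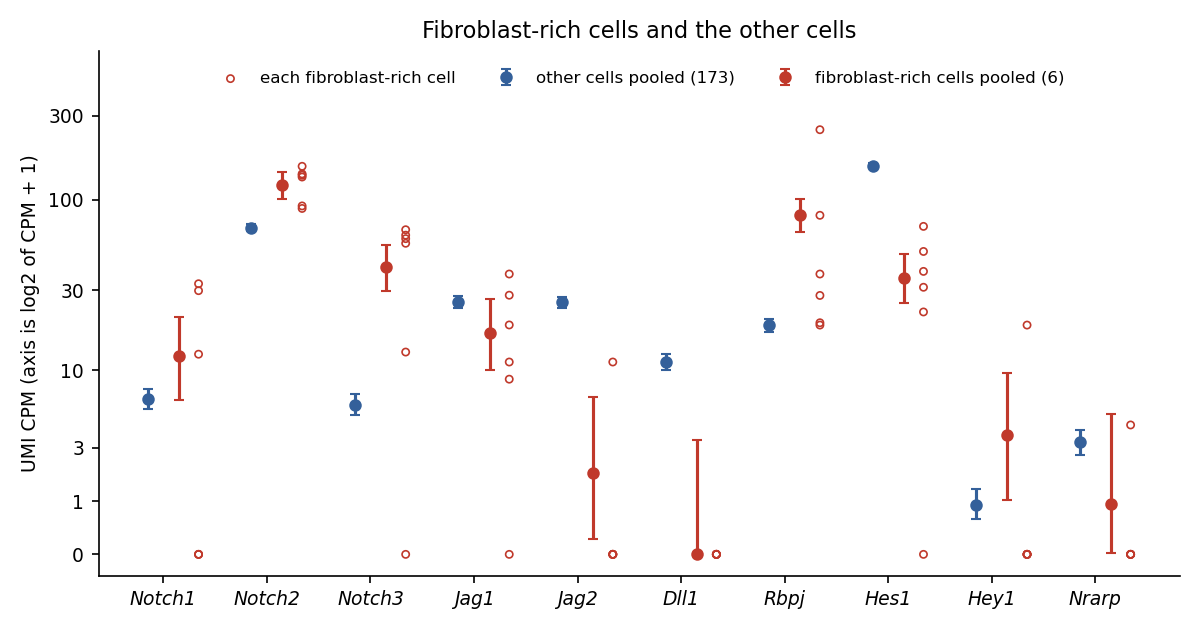
Pooled UMI CPM of each gene in the 6 fibroblast-rich cells (red, with open circles for single cells) and in all other cells (blue), with exact 95% Poisson intervals, on an axis of log2 of CPM plus 1. Notch3 and Rbpj lie higher and Hes1, Jag2 and Dll1 lower in the fibroblast-rich cells; the Rbpj value is raised by Acinar5 at 249.9 CPM.

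Heyl, a target gene of the Hey family known from Notch3-expressing mural cells, had nearly all its UMIs in fibroblast-rich cells, unlike Notch3. All but 3 of them lay there, with 164.1, 213, 262 and 78.5 CPM in Acinar44, Acinar105, Acinar182 and Acinar188 and 0 in Acinar5 and Acinar6. Among the 6 cells, those 4 are the ones with Notch3 above 56 CPM. Outside them, 57 cells had Notch3 UMIs, 5 of these above 56 CPM with Acinar164 first by count (16 UMIs), and 3 had a Heyl UMI. Acinar5 and Acinar6, at 0 and 12.9 CPM of Notch3, held the smooth muscle actin gene Acta2 at 469 and 3097 CPM, against at most 29.9 CPM in the other 4. Tagln, also a smooth muscle gene, was at 896.9 CPM in Acinar6 but at 43.8 CPM in Acinar5. It was at 46.9 and 44.9 CPM in Acinar44 and Acinar188 and at 0 in Acinar105 and Acinar182. Mcam, Des and Myh11 were at 0 in Acinar5, so for that cell the contrast rested on Acta2. Heyl and Acta2 were chosen for this description after their values were seen. Of the fibroblast genes all 10 had UMIs in the 6 cells, whose summed level ran from 3473 to 9323 CPM against 0 to 274 CPM in the others. The 6 cells also carried mural genes: of 7 pericyte and smooth muscle genes, Cspg4 was at 476 CPM against 0.374 CPM and found in all 6 (245.5 to 975 CPM), Acta2 at 556 against 0.374 CPM, Tagln at 156.3 against 1.53 CPM, Des at 44.002 against 0.112 CPM and Mcam at 31.8 against 9.72 CPM, while Rgs5 and Myh11 were at 0. Pdgfrb, a gene of fibroblasts and pericytes alike that is on the fibroblast list, was at 276 to 1062 CPM in every one. The name fibroblast-rich thus gives the rule by which the cells were set apart, and does not separate fibroblasts from mural cells. What these markers contribute to the Notch3 values was not tested.

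Acinar52, the cell rich in digestive enzymes, held Hes1 at 166.8 CPM (112.5 to 238, 30 UMIs) and no UMI of Notch1, Notch2, Notch3, Jag2, Dll1, Hey1 or Nrarp in 179841 UMIs, which allows up to 20.5 CPM each. For Notch2 that limit lies below the median of 59.6 CPM of the other cells, and Acinar52 was 1 of 3 cells with at least 100000 UMIs and no Notch2. It held 3 UMIs of Jag1 and 1 of Rbpj. Rbpjl, the acinar paralogue of Rbpj that works in the PTF1 complex without Notch, had 45 of its 47 UMIs there (250.2 CPM). The cell next in enzyme level, Acinar55 (21599 CPM of the 10 enzyme genes), also lacked Notch2 but otherwise differed: it held Hes1 at 15.1 CPM with 3 UMIs, 10 UMIs of Jag1, 9 of Jag2, 2 of Notch1 and none of Rbpjl. Acinar155 (9914 CPM of enzyme genes) held 2 UMIs of Notch2 and 4 of Hes1. The third deep cell without Notch2, Acinar137, held 157.7 CPM of enzyme genes and Hes1 at 197.1 CPM. Notch2 was thus low in the 3 cells highest in enzyme genes, at 0, 0 and 13.9 CPM against a lower quartile of 35.6 CPM over all cells. Hes1, Jag1 and Jag2 had no common pattern in them. Over thinned cells without the fibroblast-rich ones, the rho of Notch2 with the enzyme list was -0.045.

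The remaining 67 genes of the pathway lists place the 10 genes in context. Of the other receptors and ligands, Egfl7 (8.23 CPM), Notch4 (5.86 CPM) and Dner (1.87 CPM) were highest, and Dll3 had 1 UMI and Dll4 22, so Notch2 with Jag1, Jag2 and Dll1 were the receptor and the ligands with most UMIs. Among the other targets, the cell cycle genes Ccnd1 (864 CPM) and Cdkn1a (438 CPM), which many pathways control, and Sox9 (80.7 CPM) were highest. Hes5 and Hes3 had 1 UMI each, Hey2 had 2, Hes2 had 3 and Hes7 had 8, so Hes1 was the Notch-responsive member of its family that was well measured; Hes6, at 75.3 CPM, is known as an antagonist of Hes1. The proteases that release the receptor were present: the gamma-secretase subunits Psenen (111.7 CPM) and Aph1a (71.1 CPM) and the sheddase Adam10 (59.4 CPM) led, and 8 of the 10 genes of that list were found in over 50% of thinned cells. Of the enzymes that glycosylate the receptor, Poglut1 (34.6 CPM), Pofut1 (23.3 CPM) and Rfng (11.1 CPM) led, while Lfng (1.87 CPM) and Mfng (0.539 CPM) were rare. Genes for ligand endocytosis were led by Epn2 (69.7 CPM), Epn1 (56.9 CPM) and the ubiquitin ligase Mib1 (36.6 CPM). Of the inhibitors and ligases, Nedd4 (465 CPM), Fbxw7 (43.8 CPM) and Numb (40.1 CPM) led. In the RBPJ complex list, the co-repressor Ncor1 (235.9 CPM), the co-activator Maml3 (209 CPM) and Snw1 (148.9 CPM) led. Of the 45 of these genes with sufficient mean, 0 reached 0.2 with Hes1 without the fibroblast-rich cells, beside 2.94% of 9626 genes. This count is near that background. Their rho had a median of 0.055 and a range from -0.137 to 0.192. In the fibroblast-rich cells, 13 of the 59 genes with at least 20 UMIs were at least 2-fold higher and 7 lower, beside 16.4 and 16.8% of all genes. Chosen after their values were seen, Notch4 was at 25.3 against 5.08 CPM and the Numb paralogue Numbl at 79.6 against 5.19 CPM.

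Promoter sequence is shown for Rbpj and Nrarp, the genes of the list whose windows hold the RBPJ core and an E box, and for Hes5, a Notch target that carries the same motif but had 1 UMI in all cells together. The windows are the 250 bases before a gene start in RefSeq (GRCm38.p6), plus strand, 5′ to 3′, and 8 of the 10 genes had an entry (Hes1 and Hey1 are not in it). Both strands were searched for TGGGAA (the core bound by RBPJ), GTGGGAA (its longer form, which contains the core), CACGTG (an E box) and CACNAG (an N box, bound by HES proteins). Capitals mark TGGGAA or its reverse complement in Hes5 and Rbpj, and CACGTG and CACNAG or its reverse complement in Nrarp.
Hes5, chr4:154960673-154960922: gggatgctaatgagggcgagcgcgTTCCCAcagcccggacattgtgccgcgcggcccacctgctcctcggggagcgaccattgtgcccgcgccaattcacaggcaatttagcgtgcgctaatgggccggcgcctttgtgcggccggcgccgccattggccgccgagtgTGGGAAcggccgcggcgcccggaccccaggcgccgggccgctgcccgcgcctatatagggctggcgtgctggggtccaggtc
Rbpj, chr5:53590096-53590345: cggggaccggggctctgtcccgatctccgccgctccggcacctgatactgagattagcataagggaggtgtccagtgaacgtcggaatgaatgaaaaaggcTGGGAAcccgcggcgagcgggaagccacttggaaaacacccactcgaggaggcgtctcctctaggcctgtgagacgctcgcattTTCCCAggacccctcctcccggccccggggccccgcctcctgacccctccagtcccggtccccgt
Nrarp, chr2:25180508-25180757: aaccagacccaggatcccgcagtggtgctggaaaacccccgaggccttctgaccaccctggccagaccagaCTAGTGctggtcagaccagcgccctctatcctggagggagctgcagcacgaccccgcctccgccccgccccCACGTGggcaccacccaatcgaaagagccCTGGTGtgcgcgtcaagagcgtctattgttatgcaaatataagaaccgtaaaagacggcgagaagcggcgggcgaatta
The Hes5 window held TGGGAA at -226 and -82 from the start, and that of Rbpj at -149 and -65. Rbpj was the sole one of the 8 genes with the core in its windows; it has 2 listed starts, both well inside the gene span given above, and the overlapping second window holds the site at -65 of the first, at -205 from its own start. Nrarp had no core, and CACGTG lay at -108 and CACNAG at -179 and -79. CACNAG was also in the windows of Notch1, Notch2 and Notch3. Of 32851 promoter windows of that length, 21.6% held TGGGAA at least once and 2.77% at least 2 times, 5.42% held GTGGGAA, 6.02% CACGTG and 36.7% CACNAG, so a single match is common. In these cells, Rbpj was found in 81.01%, Nrarp in 30.7% and Hes5 with a single UMI.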

How the data were processed

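Single-cell RNA was measured by Smart-seq3 in 179 cells of 1 group. The authors deposited raw whole-number UMI counts and read counts per gene and cell, with no normalization; the submitters' processing notes name STAR, featureCounts, GRCm38 and mm10 without versions, and the collapsing of UMIs is not described in the sources used here. Titles gave the sample of each row. All cells passed a minimum of 1000 UMIs.

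Pooled CPM with exact Poisson intervals and shares of cells with exact binomial intervals were computed from the UMI counts. Spearman correlations were computed over cells thinned to 40000 UMIs (seed 11). These were 161 cells, and 155 without the 6 fibroblast-rich ones, which leave 173 other cells at full depth. Python 3.11.15, numpy 2.4.6, pandas 2.3.3 and scipy 1.17.1 were used. Only the correlation and the spread between cells were tested on simulated data. The linked genes checked in that correlation test averaged more UMIs than the 10 genes other than Hes1, so it does not cover these sparser genes. A correlation was counted at 0.2 in size among genes averaging 0.5 UMI or more, and a fold at 2 among genes with at least 20 UMIs; a group with 0 counts was set to a floor of 3 counts. No p-value was computed, since no animal or culture is named. All intervals cover counting error only. Doublets were not called: the labels give 1 cell per sample, but whether any sample held more was not tested. The 6 fibroblast-rich cells also held 626 to 19077.5 CPM of the 10 duct genes, with a median of 5137 CPM.

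All 10 members are named; of other pathway lists the 3 highest genes; and, by Spearman's rho, the 5 highest and 3 lowest for Hes1 and the 3 highest for Notch1, Notch2, Jag1 and Nrarp. Genes and lists were chosen with earlier results of these data known. Alternatives covered depth, reads in place of UMIs, totals, single cells and title numbers.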

Additional observations from a re-analysis of the deposited data

How the results depend on the processing

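No paired analysis was possible because the cells form 1 group. Pooled Hes1 was 125.7 CPM from reads, 146.6 CPM without its top cell Acinar90, 168.3 CPM with mitochondrial and ribosomal protein genes out of the total, and 158.1 and 142.2 CPM in title numbers up to 96 and from 97. Pooled Notch2 was 79.6 CPM from reads, 67.6 CPM with equal weight per cell and 78.8 CPM with that reduced total. From reads, Jag1 was 51.8 CPM in place of 25.3 CPM, and Jag2 20.9 CPM in place of 24.7 CPM. The rho of Hes1 with Notch1 was -0.023 at 80000 UMIs, -0.059 at 20000 UMIs, 0.242 in title numbers up to 96 and -0.020 from 97. With Notch2 it was -0.024 at 20000 UMIs, and with Jag2 -0.034 at 80000 UMIs. With Dll1 it was 0.116 at 80000 UMIs, 0.062 for unthinned CPM and 0.068 for reads. The log2 ratio of Rbpj between fibroblast-rich and other cells fell to 0.93 without Acinar5, an alternative added after the data were seen. No ratio could be had without the top fibroblast-rich cell for Jag2, Dll1, Hey1 and Nrarp, which then had 0 UMIs there, nor for Jag2 without Acinar188. The cause of these shifts was not tested. Of 25 alternative ratios for the 10 genes, 24 moved by less than their counting interval. Those at a cut of 3000 CPM of the fibroblast genes could not move, since that cut kept the same 6 cells. Intervals are wide for genes with few UMIs, so Notch1 going from 1.85 to 1.07 without Acinar44 counts as not moved. The ratios that could not be had are not among the 25, so this count is no measure of stability. Depth limits Hey1, Nrarp, Notch1 and Notch3 most: after thinning their mean was at most 0.311 UMI per cell.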
